A study of Mus musculus with 6 samples.

Results

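The genes described here are 32 genes of the piRNA pathway, out of 53700 genes counted in whole mouse testes. They were listed by name, with earlier results of these data known, and read from the count of reads on the strand opposite to the gene as written in the files. Of the 32, 31 were found by their symbol in the GENCODE M21 annotation and 1, Ddx39a, by its older symbol Ddx39. All 32 had enough reads to be tested for a difference between the groups. They lie on 17 chromosomes, with 0 on the X.

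PIWI-interacting RNAs (piRNAs) are small RNAs of the germ line that guide PIWI proteins to transposon RNA and to other targets. In the mouse they are cut from long precursor transcripts, trimmed at the 3' end, methylated and loaded into PIWI proteins, largely in cytoplasmic granules beside the mitochondria. Before birth they direct DNA methylation of transposons in prospermatogonia. After birth, pachytene spermatocytes make a large second wave from dedicated loci, and male mice that lack core factors of the pathway are generally sterile.

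RNA came from testes at postnatal day 45, in 6 libraries. Their titles name them biological replicates without stating how many mice each holds, and each is taken here as 1 mouse. The labels put 3 mice in a wild-type (WT) group and 3 in a group that carries a floxed Msl3 gene and is called conditional knockout (cKO), and they give the strain of all 6 as Msl3em1Forni/C57BL/6J. Msl3 encodes a subunit of the male-specific lethal complex, and the title of the series asks whether its loss affects spermatogenesis. The recombinase line, the cells it acts in and the deleted exons are not given in the sources used here. Libraries held 56991431 to 73766444 assigned reads, and the 32 genes took 0.622% to 0.653% of them. Msl3 itself (chrX:168654117-168673898, GRCm38) gave 942, 1226 and 990 reads under the WT label and 1170, 829 and 923 under the cKO label. In CPM (counts divided by a library size that the trimmed mean of M values, TMM, has scaled, on the assumption that most genes do not differ) these overlapped, at 16.9 ± 1.68 and 15.6 ± 0.649 CPM (SD, n = 3 each), and edgeR put the adjusted p at 0.551. The targeted gene's own count therefore did not tell the groups apart. Each direction given here compares libraries by their cKO and WT labels.

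Many genes of the pathway are known targets of Mybl1 (A-MYB), the transcription factor that turns on the pachytene piRNA loci, so promoters were examined first for the core of the MYB recognition sequence. RefSeq promoter windows, from 250 bases before to 50 bases after a gene's start on GRCm38.p6, were matched for 21 of the 32 genes, with 29 windows in all. For each role in the pathway, the window of the gene with the highest level per length among those matched is shown 5' to 3' on the strand of the gene. Capitals mark a match to TAACNG or CAACNG on either strand, and windows without capitals hold neither.
Piwil1 (chr5:128735996-128736295, plus strand): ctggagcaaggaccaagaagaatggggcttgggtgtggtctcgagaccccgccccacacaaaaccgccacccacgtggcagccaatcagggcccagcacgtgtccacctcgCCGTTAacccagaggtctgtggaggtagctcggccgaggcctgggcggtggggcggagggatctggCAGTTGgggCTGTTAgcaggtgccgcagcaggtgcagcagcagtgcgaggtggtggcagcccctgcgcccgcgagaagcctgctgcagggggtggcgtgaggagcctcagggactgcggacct
Btbd18 (chr2:84658829-84659128, plus strand): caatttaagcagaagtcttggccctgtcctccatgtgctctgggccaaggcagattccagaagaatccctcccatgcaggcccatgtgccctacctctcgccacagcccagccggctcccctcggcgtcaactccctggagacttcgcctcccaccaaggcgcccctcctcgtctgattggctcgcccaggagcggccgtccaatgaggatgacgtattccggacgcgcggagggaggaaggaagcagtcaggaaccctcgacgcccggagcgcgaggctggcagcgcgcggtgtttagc
Mael (chr1:166238695-166238994, minus strand): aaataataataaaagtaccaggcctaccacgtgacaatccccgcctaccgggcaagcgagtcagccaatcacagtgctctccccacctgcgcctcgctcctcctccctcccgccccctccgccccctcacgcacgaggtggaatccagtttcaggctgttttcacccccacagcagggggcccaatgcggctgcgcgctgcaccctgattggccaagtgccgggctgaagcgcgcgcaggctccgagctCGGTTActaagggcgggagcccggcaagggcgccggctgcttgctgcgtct
Ddx4 (chr13:112652261-112652560, minus strand): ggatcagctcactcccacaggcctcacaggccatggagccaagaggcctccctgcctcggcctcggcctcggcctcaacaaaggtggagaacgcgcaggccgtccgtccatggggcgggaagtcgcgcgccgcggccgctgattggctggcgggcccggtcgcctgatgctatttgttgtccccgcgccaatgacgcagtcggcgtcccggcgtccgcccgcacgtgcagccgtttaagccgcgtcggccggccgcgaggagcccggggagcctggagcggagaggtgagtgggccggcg
Tex19.1 (chr11:121145893-121146192, plus strand): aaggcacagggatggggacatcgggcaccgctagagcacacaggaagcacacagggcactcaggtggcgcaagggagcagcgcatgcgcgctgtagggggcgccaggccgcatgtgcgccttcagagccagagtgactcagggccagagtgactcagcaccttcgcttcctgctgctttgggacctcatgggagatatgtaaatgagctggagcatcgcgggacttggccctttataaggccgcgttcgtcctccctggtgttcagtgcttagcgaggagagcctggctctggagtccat

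Piwil1 had 3 matches, whose first printed bases lay at -139, -73 and -64 relative to its RefSeq start, and Mael had 1 at -1, all on the opposite strand. That start of Piwil1 lies inside the longer span that GENCODE gives for the gene and not at its first base. The windows of Ddx4, Btbd18 and Tex19.1 had none. TAACNG was present in 7 of the 29 windows (24.1%), against 23.3% of 32851 windows of all genes, and CAACNG in 12 (41.4%), against 35.0%. Either motif was in 51.7% of the 29 windows and 49.7% of all windows, and 2 or more matches in 27.6% and 17.2%. Windows of the same gene can overlap and share a match, as with the CAACNG of Tdrd12 and of Fkbp6. These are therefore shares of windows and not of genes. The windows differed in base composition, with a median GC content of 61.3% for the pathway and 52.7% for all genes. These matches describe letters in a short window and were not tested as binding sites.

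Across the pathway, no gene passed an edgeR quasi-likelihood test of cKO against WT at an adjusted p of 0.05. Of all 21902 genes tested, 0.0183% did. The lowest adjusted p among the 32 was 0.288, for Pld6, and DESeq2 also called 0, of 30 with a defined adjusted p. At an unadjusted p under 0.05 there were 5 of the 32 genes, Pld6, Tdrd6, Tdrd9, Tex15 and Mael, against 13.9% of all genes. Of these 5, 3 were higher and 2 lower, where 7.33% and 6.54% of all genes were. The share of genes with a small p in the pathway, 15.6%, was near that background.

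The libraries of the groups did not overlap in 10 of the 32 genes, against 18.9% of all genes tested. In 7 of them all libraries labelled cKO lay above all those labelled WT (10% of all genes), and in 3 below (8.85%). The fitted log2 fold change was above 0 in 22 of the 32 genes, against 50.7% of all genes. The median over the 32 was 0.06, and over all genes 0.0031. It stood at 0.02 without WT replicate 2 and also without cKO replicate 1, where 18 and 16 of the 32 genes were above 0.

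The median SE of the log2 fold change was 0.078 over the 32 genes and 0.11 over all genes tested. For 30 of the 32 genes the 95% interval of the fold change lay within 1.5-fold in either direction, against 72.0% of all genes tested. Among 19116 genes tested whose mean log2 CPM lay within the range of the 32, the share was 82.2% and the median SE 0.10. Over those 30 the bounds ran from 0.721-fold to 1.35-fold. The exceptions were Piwil4, with few reads, and Tex15. Among the genes above 100 CPM, Tex15 had the largest SD relative to its mean in both groups, at 11.4% (WT) and 20.2% (cKO).

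Levels were compared between genes as CPM per kb of exon, averaged over the 6 libraries. They spanned 4 orders of magnitude on that scale. Mael, which encodes a protein of the germ granules needed for transposon silencing, stood first at 790 CPM per kb, followed by Gtsf1 at 222, Ddx4 at 188, Tdrd6 at 136, Piwil1 at 104 and Adad1 at 103. The last pair overlapped in their libraries, as the plot of levels shows. Piwil4, Dnmt3c, Morc1, Btbd18 and Spocd1 were the lowest, at 0.0781, 0.602, 1.12, 1.51 and 1.83 CPM per kb. Piwil4, Dnmt3c and Spocd1 are known from the wave of transposon methylation before birth. Mael and Tdrd6 together gave 37.5% of the summed CPM of the 32 genes in the WT group.

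**Figure D1:**
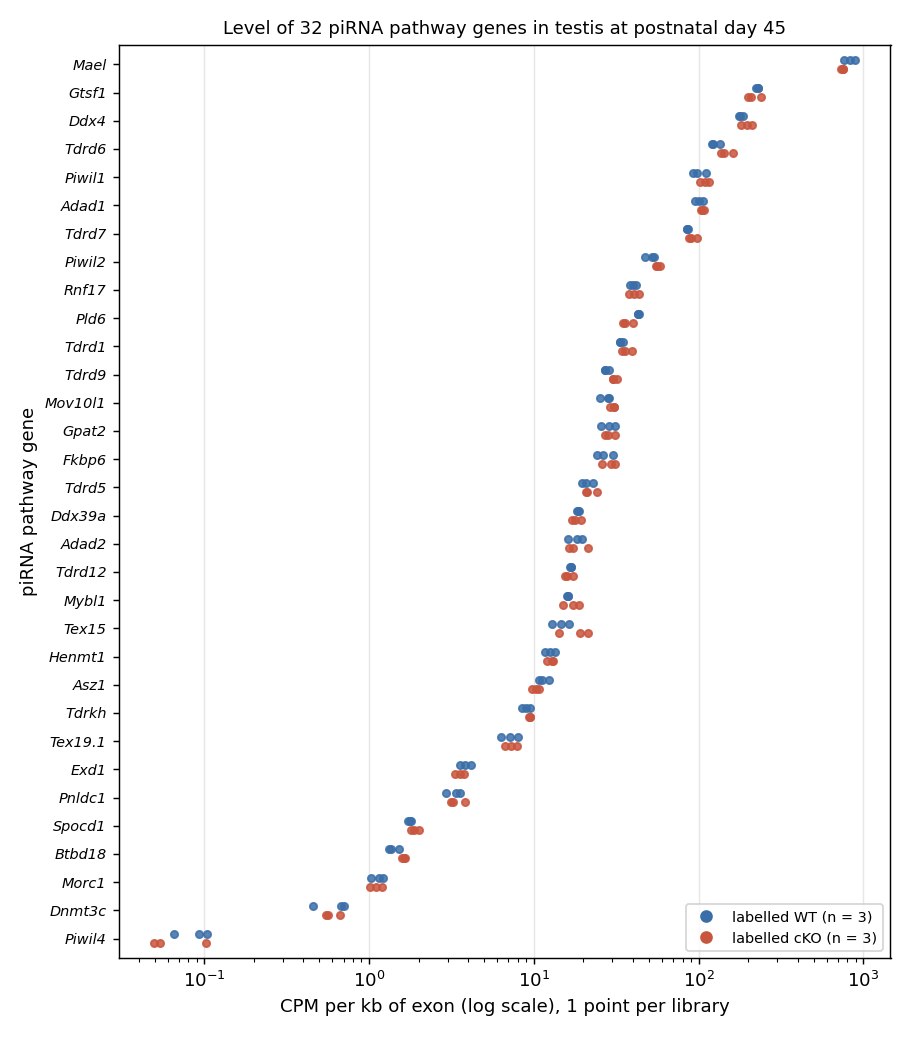
Level of each of the 32 genes in CPM per kb of exon on a log scale, with 1 point per library, blue for the 3 libraries labelled WT and red for the 3 labelled cKO. Genes are ordered by their mean over the 6 libraries, from Mael at 790 CPM per kb down to Piwil4 at 0.0781, and the distance between groups is small against the distance between genes.

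The PIWI proteins bind piRNAs and carry out silencing. Piwil1 (MIWI, ENSMUSG00000029423, chr5:128702524-128755474, GRCm38), the PIWI protein of pachytene spermatocytes and round spermatids, had 482, 402 and 425 CPM in the WT group and 506, 474 and 442 in the cKO group. The groups overlapped, since WT replicate 1 lay above 2 of the libraries labelled cKO. They differed by 0.12 on the log2 scale (SE 0.081, edgeR adjusted p 0.530), by 0.20 without WT replicate 1 and by 0.06 without WT replicate 2.

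Piwil2 (MILI, ENSMUSG00000033644, chr14:70372477-70429383), the PIWI protein present from prospermatogonia to spermatocytes, had 284, 249 and 275 CPM in the WT group and 310, 291 and 295 in the cKO group. Every library labelled cKO lay above every library labelled WT. The log2 fold change was 0.15 (SE 0.070) and the edgeR adjusted p 0.368. A loess correction of each library for GC content and transcript length brought it to 0.07.

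Piwil4 (MIWI2, ENSMUSG00000036912, chr9:14696230-14740733), the nuclear PIWI protein of prospermatogonia, was barely detected. It had 33, 23 and 31 reads in the WT libraries and 40, 15 and 17 in the cKO libraries, which is 0.472 ± 0.106 CPM (SD, n = 3) and 0.369 ± 0.156 CPM (SD, n = 3). The fold of 0.807 had 95% limits of 0.501 and 1.30, so a decrease of 1.5-fold in Piwil4 lay within the interval and an increase of 1.5-fold outside it. Its log2 fold change of -0.31 became -0.74 without cKO replicate 1 and -0.13 without cKO replicate 2, and edgeR called it in neither case.

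Precursor transcription and export are represented by Mybl1, Btbd18 and Ddx39a. Btbd18 (ENSMUSG00000086598, chr2:84659079-84668780), a nuclear factor needed for transcription elongation at pachytene piRNA loci, had 5.32, 4.67 and 4.81 CPM in the WT group and 5.55, 5.83 and 5.75 in the cKO group. The groups were separate, but the reads behind each value numbered only 299 to 405. They differed by 0.21 on the log2 scale (SE 0.10, edgeR adjusted p 0.379). Mybl1 had 86.7 ± 0.615 CPM (SD, n = 3) and 91.9 ± 10.4 CPM (SD, n = 3), with cKO replicate 1 below and cKO replicate 2 above all libraries labelled WT. Mybl1 differed by 0.08 on the log2 scale (edgeR adjusted p 0.684), by 0.17 without cKO replicate 1 and by 0.0063 without cKO replicate 2. Ddx39a, a helicase of mRNA export, had 95.4 ± 1.53 CPM (SD, n = 3) and 92.9 ± 6.33 CPM (SD, n = 3), or -0.04 as a log2 fold change, and -0.10 after the correction for GC content and length.

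Of the 12 genes of piRNA processing and loading, 6 had a log2 fold change above 0 and 6 below, with a median of -0.02. Pld6 (ENSMUSG00000043648, chr11:59783897-59787645), also named Zucchini or MitoPLD, is the mitochondrial nuclease family member that cuts piRNA precursors. It had 75.0, 74.9 and 76.9 CPM in the WT group and 70.0, 61.2 and 63.2 in the cKO group. All 3 libraries labelled cKO were below the WT range, cKO replicate 1 least. For the difference of -0.22 (log2, SE 0.070) edgeR gave an adjusted p of 0.288, which became 0.0463 without cKO replicate 1, at a log2 fold change of -0.28.

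Mael (ENSMUSG00000040629, chr1:166201201-166238747) had 1331, 1553 and 1446 CPM in the WT group and 1278, 1301 and 1303 in the cKO group. The 3 libraries labelled cKO were close together, and WT replicate 1 lay just above them. Its log2 fold change was -0.16 (SE 0.070) and its edgeR adjusted p 0.350. Corrected for GC content and transcript length it was -0.07. Because Mael is so abundant, the summed CPM of the processing genes did not overlap between the groups, at 2204 to 2387 and 2107 to 2166, and without Mael it did, at 835 to 873 and 806 to 888.

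Asz1 (ENSMUSG00000010796, chr6:18050964-18109061), a mitochondrial membrane protein that holds processing factors in place, had 30.6, 34.9 and 31.7 CPM in the WT group and 27.7, 29.2 and 30.4 in the cKO group. The nearest libraries, WT replicate 1 and cKO replicate 3, differed by less than the SD of either group. The difference was -0.16 on the log2 scale (SE 0.076, edgeR adjusted p 0.385), and -0.05 after the correction for GC content and length. Mov10l1 (ENSMUSG00000015365, chr15:88982909-89055152), the helicase that feeds precursors into processing, had 119, 105 and 119 CPM in the WT group and 128, 121 and 129 in the cKO group, again without overlap. It differed by 0.14 on the log2 scale (SE 0.071, edgeR adjusted p 0.401), and by 0.08 after the correction.

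The other 8 processing genes had overlapping groups and log2 fold changes from -0.12 to 0.10. They include Pnldc1, the exonuclease that trims piRNA 3' ends, at 8.74 ± 0.821 CPM (SD, n = 3) in the WT group and 9.04 ± 0.978 CPM (SD, n = 3) in the cKO group. Henmt1, the methyltransferase that seals those ends, had 33.6 ± 2.27 and 33.8 ± 1.62 CPM (SD, n = 3 each), the log2 fold change nearest to 0 of all 32 genes at 0.0078. Gtsf1, a small zinc finger partner of PIWI proteins that boosts their cleavage, had 316 ± 4.59 and 300 ± 29.6 CPM (SD, n = 3 each), and its log2 fold change went from -0.07 to 0.06 with the correction for GC content and length. Tdrd12, which takes part in secondary piRNA production, and its partner Exd1 had log2 fold changes of -0.04 and -0.12. The correction moved Exd1 to -0.22 (edgeR adjusted p 0.473). Fkbp6, a co-chaperone of piRNA loading, had 0.10, or 0.16 after the correction, and Gpat2, a mitochondrial acyltransferase family member bound to Piwil2, 0.03.

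Tdrkh, the mitochondrial Tudor protein that presents PIWI proteins to the trimmer, has a particular limit. Over 36.7% of its exon bases it overlaps Oaz3, an abundant spermatid gene on the opposite strand. Reads on the strand that the protocol assigns to Oaz3 made up 92.9% of the reads over Tdrkh, 36919 to 57722 per library, against 3245 to 4216 assigned to Tdrkh itself. In the 26 genes of the pathway without an annotated opposite-strand overlap the median share on that strand was 0.0802%, and the highest was 3.81%, in Exd1. At the median share, 46.4 of the 4216 Tdrkh reads of cKO replicate 1 would come from the wrong strand. Tdrkh had 55.3 ± 3.22 CPM (SD, n = 3) in the WT group and 57.9 ± 0.142 CPM (SD, n = 3) in the cKO group. Its log2 fold change was 0.07 and its edgeR adjusted p 0.697.

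The 9 proteins of the germ granules and their RNA helicases all had fitted log2 fold changes above 0, from 0.02 for Adad2 to 0.22 for Tdrd6, with a median of 0.10. Of all genes tested 50.7% were above 0, and of those with a longest transcript over 4000 bases 75.3%. Tdrd1, Tdrd6, Tdrd9 and Rnf17 of the 9 are in that length class. None of the 9 passed the edgeR threshold, and with library totals alone as the scaling 7 of the 9 were above 0. Without cKO replicate 1 the count was also 7, and after the correction for GC content and length it was 8. Tdrd6 (ENSMUSG00000040140, chr17:43615335-43630299), a large Tudor protein of the chromatoid body of spermatids, had 954, 852 and 861 CPM in the WT group and 960, 1148 and 1003 in the cKO group. WT replicate 1 and cKO replicate 1 were nearly level, and cKO replicate 2 stood highest. Between the groups Tdrd6 differed by 0.22 on the log2 scale (SE 0.080, edgeR adjusted p 0.306), and by 0.07 after the correction for GC content and length.

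Tdrd9 (ENSMUSG00000054003, chr12:111971559-112068854), a Tudor and helicase protein that works with Piwil4 in transposon silencing, had 155, 146 and 147 CPM in the WT group and 164, 173 and 164 in the cKO group. The groups were separate by more than the SD of either, at 4.85 and 5.32 CPM (n = 3 each). Its log2 fold change was 0.16 (SE 0.064, edgeR adjusted p 0.315), and 0.07 after the correction. Tdrd7 (ENSMUSG00000035517, chr4:45965334-46034761), which shapes the chromatoid body, had 338, 343 and 335 CPM in the WT group and 347, 386 and 356 in the cKO group. These too did not overlap, with cKO replicate 1 close to WT replicate 2. Tdrd7 had a log2 fold change of 0.10 (SE 0.066, edgeR adjusted p 0.512), and of 0.06 after the correction.

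The other granule genes had overlapping groups. Ddx4 (mouse Vasa), the germ cell helicase, had 542 ± 14.2 CPM (SD, n = 3) in the WT group and 591 ± 42.1 CPM (SD, n = 3) in the cKO group. Its log2 fold change was 0.12 and its edgeR adjusted p 0.445, and after the correction 0.15 and 0.569. Tdrd1, a scaffold of the granules between mitochondria, had 0.11 and Tdrd5, needed for pachytene precursor processing, 0.07 on the same scale. Rnf17 and Adad2, which share a granule in spermatocytes, had 0.03 and 0.02, and Adad1, an RNA-binding relative of Adad2, 0.07, which the correction raised to 0.11. The summed CPM of the 9 genes was 2811 to 2957 in the WT group and 3005 to 3349 in the cKO group, without overlap, and this remained so with Tdrd6 left out, at 1950 to 2003 and 2045 to 2201. These sums were not computed after the correction for GC content and length.

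Among the 5 genes of nuclear silencing Tex15 had the largest fitted difference of the 32. Tex15 (ENSMUSG00000009628, chr8:33516738-33585582), a PIWI-bound factor of transposon methylation that also serves meiotic recombination, had 124, 156 and 140 CPM in the WT group and 136, 206 and 184 in the cKO group. The groups overlapped because cKO replicate 1 lay below WT replicates 2 and 3. For the difference of 0.32 (log2, SE 0.13) edgeR gave an adjusted p of 0.320. Without cKO replicate 1 it was 0.47 with an adjusted p of 0.0200, without cKO replicate 2 it was 0.19 with 0.636, and without a filter on low counts it was 0.31 with 0.0101. After the correction for GC content and length it was 0.23, with 0.395.

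Spocd1 (ENSMUSG00000028784, chr4:129929249-129957115), a nuclear partner of Piwil4 in transposon methylation, had 5.56, 5.83 and 5.73 CPM in the WT group and 5.83, 6.49 and 6.04 in the cKO group. WT replicate 2 and cKO replicate 1 were equal to 3 digits, so the groups were barely separate. For Spocd1 the log2 fold change was 0.10 (SE 0.097) and the edgeR adjusted p 0.683. Morc1, an ATPase that acts after piRNAs in silencing, had 7.33 ± 0.650 and 7.15 ± 0.615 CPM (SD, n = 3 each), and Tex19.1, a germ cell protein that restrains transposons, 13.4 ± 1.58 and 13.7 ± 1.17 CPM (SD, n = 3 each). Dnmt3c, the rodent methyltransferase for young transposon promoters, had 60 to 98 reads per library and a log2 fold change of -0.06. Of its 31-base sequences 31.9% also occur in transcripts of Dnmt3b, so its count is uncertain.

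**Figure D2:**
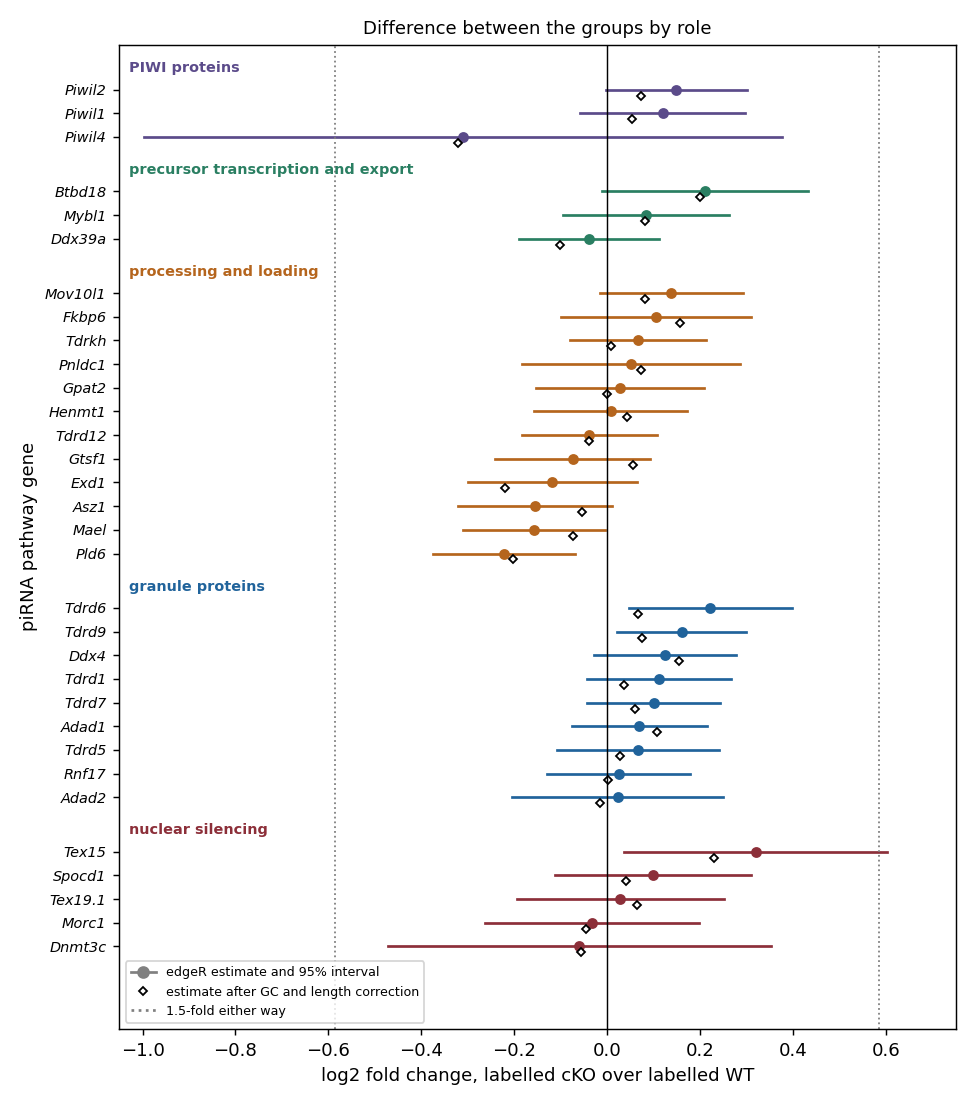
Log2 fold change of each gene, labelled cKO over labelled WT, with the genes grouped by role. Filled circles and lines are the edgeR estimate and its 95% interval from 3 libraries per group, open diamonds the estimate after the correction for GC content and transcript length, and dotted lines 1.5-fold in either direction. Only the intervals of Piwil4 and Tex15 reach beyond the dotted lines, and the diamond of Tdrd6 lies at 0.07 against 0.22 for its circle.

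The values also differed by library within the groups. WT replicate 2 was the lowest of the 6 libraries for 15 of the 32 genes (46.9%), against 23.6% of all genes tested. The highest library was cKO replicate 2 for 11 genes and cKO replicate 1 for 10, or 34.4% and 31.2%, against 24.0% and 17.5% of all genes. The genes did not move as a block within the cKO group. Tex15, Mybl1, Ddx4 and Tdrd1 were below their mean over the 6 libraries in cKO replicate 1 and above it in cKO replicate 2, while Adad2, Pnldc1, Gtsf1 and Tdrd5 showed the opposite. These examples were chosen after their values were seen. Summed over the 32 genes, CPM was 6168 to 6269 in the WT group and 6339 to 6649 in the cKO group, without overlap, and the median deviation of a gene from its own mean was -0.11 (log2) in WT replicate 2 and between -0.01 and 0.05 in the others.

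**Figure D3:**
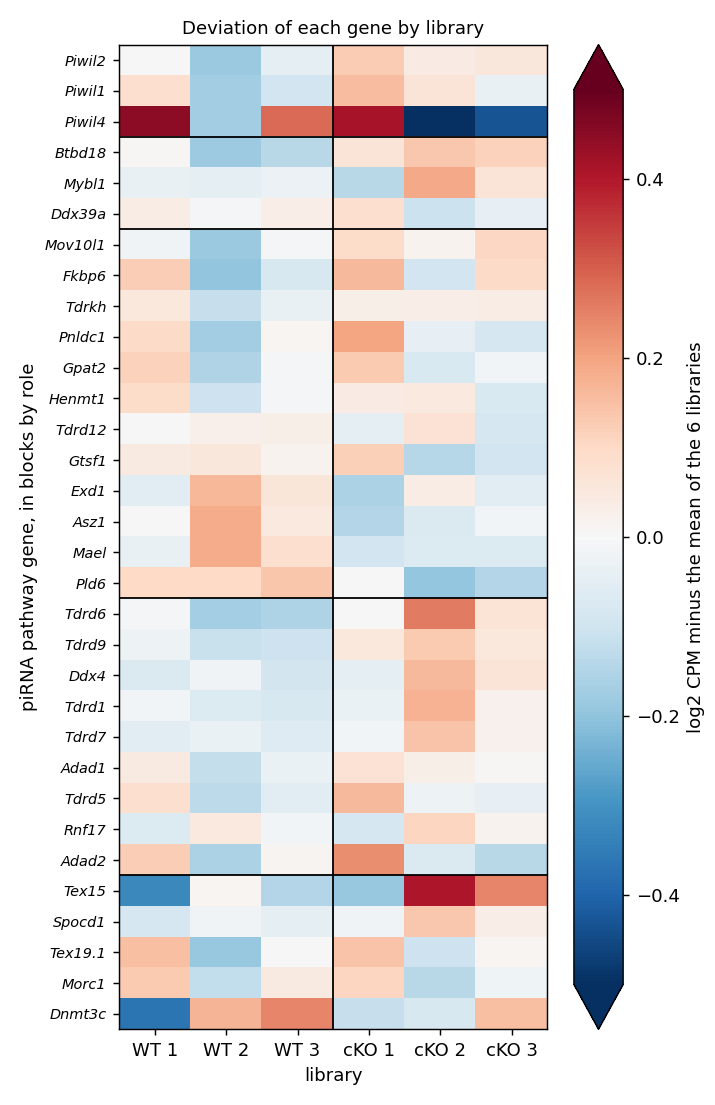
Deviation of each gene's log2 CPM from its mean over the 6 libraries, from blue (lower) to red (higher) with the darkest shades at 0.5 or more either way, with genes in rows in blocks by role and libraries in columns, WT to the left of the vertical line. Of the 32 rows, 18, 9 and 12 lie above the mean in WT replicates 1, 2 and 3, and 20, 18 and 17 in cKO replicates 1, 2 and 3. WT replicate 2 lies below it in 23.

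Transcript length moved with the direction of the differences. Among the 12 genes of the pathway whose longest annotated transcript is over 4000 bases, 10 had a log2 fold change above 0, with a median of 0.12. All genes tested in that class had a median of 0.10, and 75.3% of them were above 0. Among the 7 genes under 2000 bases, 4 were above 0 with a median of 0.0078, where all genes of that class had a median of -0.10 and 29.0% were above 0. Spearman's rho between log2 fold change and length was 0.46 over the 32 genes and 0.45 over 21851 genes, which is a description across genes that share the same 6 libraries. After the correction for GC content and length rho was 0.11 over the 32 genes and 0.026 over the 21851. The correction takes out the trend with length in each library, so this fall was built in.

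The long genes lay lower in all 3 libraries labelled WT than in cKO replicates 2 and 3. For all genes over 4000 bases the median deviation was -0.04, -0.06 and -0.05 in WT replicates 1, 2 and 3, and -0.02, 0.10 and 0.06 in cKO replicates 1, 2 and 3. The correction made the log2 fold change smaller in size for 21 of the 32 genes and larger for 11. It moved the median over the 32 genes from 0.06 to 0.04, left 21 above 0, and left 8 of the 9 granule genes above 0. What gives longer transcripts higher values in these libraries was not tested.

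**Figure D4:**
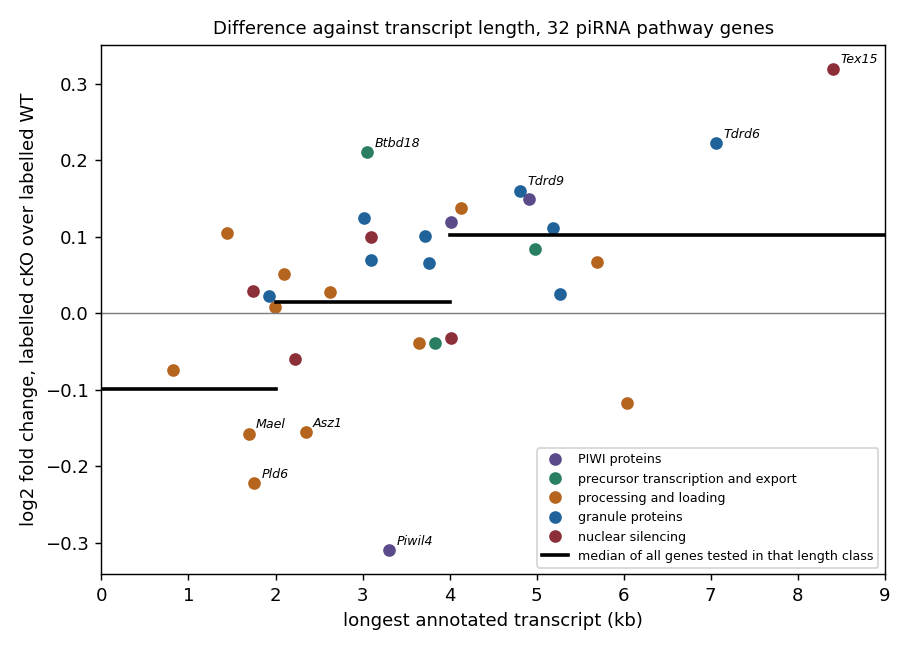
Log2 fold change, labelled cKO over labelled WT, against the length of the longest annotated transcript in kb, with 1 point per gene coloured by role and black lines for the median of all genes tested in 3 length classes (under 2 kb, 2 to 4 kb, over 4 kb). Tex15 and Tdrd6, the longest, have the highest values of the 32, while the short genes Pld6 and Mael are below the median of their class.

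A further 26 genes that act beside the pathway, as cofactors, modifiers or export factors, were read in the same fit. None passed the edgeR adjusted threshold and DESeq2 called 0. At an unadjusted p under 0.05 there were 5 (19.23%, against 13.9% of all genes tested), with 4 higher and 1 lower. The groups did not overlap in 7 (26.9%, against 18.9%). All 7 were higher in the libraries labelled cKO, where 10% of all genes were higher without overlap and 8.85% lower. Of all genes with a longest transcript over 4000 bases, 75.3% had a log2 fold change above 0. Log2 fold changes of the 26 genes after the correction for GC content and length are not given. The part of transcript length in their direction was not tested. Dnmt3a, a de novo DNA methyltransferase, had 18.0, 17.2 and 16.8 CPM in the WT group and 20.1, 22.3 and 21.8 in the cKO group. It differed by 0.30 on the log2 scale (SE 0.076, edgeR adjusted p 0.276), and without cKO replicate 1 by 0.35 with an adjusted p of 0.0403. Mov10, the broadly expressed relative of Mov10l1, had 26.0 ± 3.05 and 30.5 ± 1.97 CPM (SD, n = 3 each), and Ubr2, the ubiquitin ligase bound to Tex19.1, 26.1 ± 0.294 and 29.9 ± 2.89 CPM (SD, n = 3 each). Hsp90aa1, the chaperone of PIWI loading, had 875 ± 31.1 and 968 ± 42.7 CPM (SD, n = 3 each). These 4 were without overlap, with edgeR adjusted p of 0.276 to 0.352. Gtsf2, a relative of Gtsf1, had overlapping groups and a log2 fold change of -0.31 (edgeR adjusted p 0.315), with 0.0102 when low counts were not filtered.

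Genes of the pathway are transcribed mainly in spermatogonia, spermatocytes and spermatids, and in whole testis fewer cells of a type and less RNA per cell cannot be told apart. Marker lists of these cells were therefore summed in each library. The 9 spermatocyte markers summed to 1329 to 1392 CPM in the WT group and 1292 to 1369 in the cKO group, and the 8 spermatogonial markers to 125 to 147 and 127 to 146, overlapping in both cases. The 8 round spermatid markers gave 1143 to 1271 and 1087 to 1128, without overlap, and the 8 elongating spermatid markers 19104 to 21092 and 16500 to 19808, overlapping. Sertoli markers summed to 1172 to 1426 and 1201 to 1556, Leydig markers to 822 to 985 and 743 to 975, myoid markers to 118 to 122 and 113 to 135, and macrophage markers to 96.7 to 110 and 99.1 to 111. Abundant genes weigh most in such sums, as Clu (mean 1091 CPM in the WT group) for Sertoli and Mrc1 (47.9 CPM) for macrophage markers. Markers of 1 list could move in opposite directions. Mrc1 had a log2 fold change of 0.25 and Fcgr3 -0.34, Myh11 0.32 and Tagln -0.20, and Sox9 0.26 and Amh -0.05. These examples were chosen after their values were seen. Log2 fold changes were above 0 in 1 of 8 round spermatid, 2 of 8 elongating spermatid, 3 of 9 spermatocyte and 6 of 8 spermatogonial markers. The counts were 7 of 8 for Sertoli, 2 of 7 for Leydig, 1 of 5 for myoid and 1 of 7 for macrophage markers. Of all genes tested 50.7% were above 0, and of those under 2000 bases 29.0%. No marker was at 0 in any library, the lowest being Nanos3 with 29 reads. The part of these cell types in the values of the pathway was not tested.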

How the data were processed

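The files hold raw read counts per gene, deposited by the authors as 1 table per library in the layout of STAR's gene count output. The submitters' processing notes name STAR, HTSeq, DESeq2 and mm10 without versions or roles. The annotation release is not given in the sources used here. Reads on the strand opposite to the gene (96.0% to 96.2% of the 2 strand columns) were used. Lines that name no gene held 14.8% to 16.7% of reads and were left out.

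Symbols, lengths and coordinates came from GENCODE M21 (GRCm38), which matched 52147 of 53700 identifiers. Counts were tested with edgeR 4.0.16 (filterByExpr with a minimum count of 10, TMM scaling, quasi-likelihood F test without covariates) in R 4.3.3, with Benjamini-Hochberg adjustment over 21902 genes and a threshold of 0.05. DESeq2 1.42.0, scaling, filters, strand column, a replicate block, a covariate, a loess correction for GC content and length (span 0.3) and left-out libraries were alternatives. GC content and length were known for all 32 genes. Beyond the strain and "biological replicate", nothing in the labels describes the animals' origin, so whether any shared a litter or cage is not known. The p-values set the difference between the groups against the spread between libraries within them. In simulated counts, edgeR recovered 97% of 200 changes of 1, 65% of changes of 0.5 and 5% of changes of 0.3 (log2), with 21673 to 21676 genes tested. Of the 217, 143 and 13 genes that edgeR called, 23, 13 and 3 were unchanged genes. From the same counts DESeq2 recovered 96.5%, 71% and 24.5% of the changes. The simulated counts were independent between genes, without shifts by transcript length, and only genes above 1 CPM were changed. Recovery in the real libraries may therefore differ.

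The genes, roles and lists were chosen with earlier results of these data known. All 32 genes are named. Values of each library are given for the PIWI genes and for those with no overlap between groups or an unadjusted p under 0.05. Coordinates are those of the annotation.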

Additional observations from a re-analysis of the deposited data

How the results depend on the processing

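No gene of the pathway was called with RLE scaling, library totals alone, at least 10 reads in every library, robust quasi-likelihood, DESeq2, a replicate block, counts from either strand, the percentage of reads lying outside genes as a covariate, the correction for GC content and length or an adjusted p threshold of 0.1. Without a filter on low counts 1 was called (Tex15) with 1 of the 26 other genes (Gtsf2) and 757 genes in all. Leaving out each library gave 0 to 2 genes of the pathway, 0 to 2 of the others and 1 to 628 in all, the highest without cKO replicate 1 (Tex15 and Pld6, and Dnmt3a and Thoc2). Against 4 genes in all, counts from either strand gave 2, the covariate 44 and DESeq2 193. The replicate block gave 49 genes in all. Same-numbered libraries had deviations across genes that correlated at 0.35, 0.26 and -0.05. Differently numbered libraries were not compared, so these values cannot tell whether the numbers pair the mice. The cause of the differing numbers of genes called was not tested.

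Of the log2 fold changes of single genes, 8 of 352 changed sign under a setting other than leaving out a library and 20 of 192 on leaving out a library. With library totals alone Henmt1 was at -0.0195, Rnf17 at -0.0030 and Adad2 at -0.0045. Henmt1 was at -0.0020 without a filter and at -7.2e-04 with 10 reads in every library. With the correction for GC content and length Gpat2 was at -0.0011, Gtsf1 at 0.056 and Adad2 at -0.0146. Over the left-out libraries, genes that changed sign ran from -0.022 to 0.072 (Rnf17), -0.10 to 0.027 (Morc1), -0.044 to 0.11 (Pnldc1), -0.040 to 0.059 (Henmt1), -0.039 to 0.096 (Gpat2), -0.10 to 0.094 (Adad2), -0.056 to 0.11 (Tex19.1), -0.23 to 0.046 (Dnmt3c), -0.0032 to 0.13 (Tdrd5) and -0.094 to 0.0046 (Ddx39a). Genes that kept their sign but moved by over 1.5 times ran from 0.064 to 0.20 (Piwil1), 0.095 to 0.19 (Piwil2), -0.74 to -0.13 (Piwil4), 0.0063 to 0.17 (Mybl1), 0.081 to 0.17 (Mov10l1), 0.026 to 0.11 (Tdrkh), -0.19 to -0.099 (Asz1), -0.17 to -0.062 (Exd1), -0.084 to -0.006 (Tdrd12), -0.16 to -0.022 (Gtsf1), 0.034 to 0.20 (Fkbp6), -0.21 to -0.10 (Mael), 0.049 to 0.15 (Tdrd1), 0.14 to 0.28 (Tdrd6), 0.055 to 0.13 (Tdrd7), 0.073 to 0.17 (Ddx4), 0.029 to 0.11 (Adad1), 0.19 to 0.47 (Tex15) and 0.057 to 0.13 (Spocd1). The cause was not tested. The reads of Piwil4 and Dnmt3c, 15 to 98 per library, limit what can be said of them.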
